A study of Arabidopsis thaliana with 30 samples.

Results

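The comparison set 3 libraries of Arabidopsis thaliana root meristems given 14 h of estradiol, which switched on ZAT14-like, against 3 libraries of the same line given DMSO, the solvent. They were chosen by their labels, as 6 of the 30 libraries of the series, and 17157 of the 34218 genes in the table were tested, those with at least 1 FPKM (fragments per kilobase of gene, scaled to sequencing depth) in at least 3 of the 18 libraries made with the ZAT14-like and ZAT14 lines. At the edge of that filter, 158 genes reached 1 FPKM in exactly 3 libraries and had a median level of 0.677 FPKM over the table, and 216 genes left out reached it in exactly 2 and had a median of 0.585 FPKM. Genes under 1 FPKM with DMSO could pass it only through other libraries, those at 14 h among them. For such genes the share called higher is partly set by the filter. Seedlings were 5 days old and of the Col-0 background. The line carries ZAT14-like fused to the fluorescent protein mTurq under pWOL[xve], an estradiol-dependent version of the WOL promoter, which is active in the vascular cylinder of the root, and seedlings were moved to 5 µM estradiol before harvest. A second line carries ZAT14-mTurq under the same promoter and was sampled likewise, with 3 libraries at 14 h and 3 with DMSO. Each line also gave 3 libraries after 10 h of 5 µM estradiol, which make up the rest of those 18. Whole dissected meristems were used, so the values average over induced vascular cells and all other cells, and fewer cells of a type cannot be told apart from less RNA per cell. The labels do not say how long DMSO was given, at which hour of the day roots were cut, or whether replicates were grown separately. Every p-value therefore rests on the scatter among these libraries alone, which may be technical. No estradiol-treated line without a transgene was analysed here.

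ZAT14-like and ZAT14 are C2H2 zinc finger transcription factors, a group in which several related ZAT proteins repress transcription. The vascular cylinder in which they were induced holds xylem, phloem and the dividing procambium between them. Xylem vessels form when NAC and MYB master regulators switch on the cellulose synthases, xylan enzymes and laccases of the secondary wall and, later, the proteases of a programmed cell death. Thermospermine, made by ACL5, holds back that maturation, and the TMO5-LHW pair of bHLH factors drives the divisions that widen the vascular cylinder.

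Depth, estimated from the steps between low values, was 19.9 to 21.8 M reads in the 14 h libraries and 20.7 to 25.3 M reads in the DMSO libraries. FPKM summed to 659906 to 670477 at 14 h and to 665778 to 674882 with DMSO, and the median change over all tested genes was 0.00 log2 units, both of which the scaling of FPKM to library depth largely sets. Root cap markers (SMB, BRN1, BRN2 and FEZ, 4 of 4 tested) summed to 77.8 to 84.4 FPKM at 14 h and 77.6 to 86.7 FPKM with DMSO. The WOL gene itself, which marks the vascular cylinder, averaged 28.0 FPKM at 14 h and 25.8 FPKM with DMSO and did not pass the test. One library outside the comparison, ZAT14-like 10 h replicate 1, stood apart, with FPKM summing to 715530 where the other 17 lay between 659906 and 685489. It entered only the shared estimate of the spread, and leaving it out, a choice made after seeing the data, moved the number of genes called from 2123 to 3409.

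The induced gene rose as labelled. ZAT14-like (AT5G04390, chromosome 5 from 1238820 to 1240517, plus strand, in the TAIR10.1 annotation) had 79.8, 74.9 and 59.5 FPKM at 14 h, against 5.90, 5.46 and 6.59 FPKM with DMSO. Every 14 h library lay far above every DMSO library, with a log2 fold change of 3.37 (SE 0.12, adjusted p = 2.97e-11 by limma). Fold changes here are differences of log2(FPKM + 1), which understate the change of genes near 0. Reads from the introduced and the native copy are counted together, and the line with DMSO already read higher than the ZAT14 line, where ZAT14-like had 0.508, 0.553 and 0.492 FPKM at 14 h and 0.995, 0.461 and 0.574 FPKM with DMSO. ZAT14, its close relative, had 9.75, 14.1 and 9.86 FPKM at 14 h, against 9.04, 8.18 and 9.45 FPKM with DMSO. Its log2 fold change of 0.29 (SE 0.14) did not pass (adjusted p = 0.174). Among 8 tested genes of other ZAT and AZF zinc finger proteins 1 was called higher, 12.5% where 7.89% of all genes were. It was ZAT10, a stress-responsive repressor, at 10.7 ± 2.27 FPKM against 6.22 ± 0.479 FPKM (SD, n = 3 each), and the rest did not pass. ZAT10 lost its call without DMSO replicate 1 or 2 (adjusted p = 0.0776 and 0.105) or 14 h replicate 3 or 4 (0.125 and 0.0901).

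Of the 17157 genes, 1353 rose (7.89%) and 770 fell (4.49%) at a Benjamini-Hochberg adjusted p under 0.05. The rises were larger: 238 of them reached a log2 fold change of 1, and 25 of the falls reached -1, with medians of 0.52 among the genes that rose and -0.41 among those that fell. The 3 libraries of each group did not overlap for 6625 genes (38.6%), and 2091 of the called genes were among them. The number called was 1112 without DMSO replicate 2, 1154 without 14 h replicate 3 and 1342 without DMSO replicate 1.

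Several of the largest rises were in genes at or near 0 FPKM with DMSO. AT3G15356, which has no symbol and is annotated as a legume lectin, had 237, 234 and 194 FPKM at 14 h, against 2.83, 2.10 and 1.5 FPKM with DMSO. That is a log2 fold change of 6.16 (SE 0.18, adjusted p = 2.45e-12). Other annotated legume lectins did not follow it, since AT1G53060 and AT1G53070 were called lower, with log2 fold changes of -0.57 and -0.62. AT4G19200, a proline-rich protein gene, had 149, 148 and 132 FPKM at 14 h and 16.6, 14.9 and 15.1 FPKM with DMSO (log2 fold change 3.13). AT2G41445, annotated as an agamous-like MADS-box protein, had 10.2, 9.67 and 9.32 FPKM at 14 h and was listed at 0 in the DMSO libraries.

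The gene scpl37, annotated as a serine carboxypeptidase, had 30.8, 37.7 and 30.1 FPKM at 14 h and was listed at 0 in all 3 DMSO libraries. TET13, a tetraspanin, had 6.37, 6.03 and 5.17 FPKM at 14 h and was also listed at 0 with DMSO. E12A11, of the PEBP family that includes the flowering signal FT, had 12.5, 14.9 and 14.9 FPKM at 14 h and 0.0606, 0 and 0 FPKM with DMSO. For these genes the DMSO group held almost no reads, so no fold is given. CPK16, a calcium-dependent protein kinase, read 5.96, 5.80 and 5.58 FPKM at 14 h against at most 0.0645 FPKM with DMSO (adjusted p = 1.16e-11). LEA3, of the late embryogenesis abundant proteins, averaged 7.42 ± 1.64 FPKM at 14 h and 0.137 ± 0.0697 FPKM with DMSO.

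Genes measurable in both groups rose as clearly. WVD2, which binds microtubules, had 21.6, 20.8 and 18.7 FPKM at 14 h, against 0.634, 0.571 and 0.616 FPKM with DMSO (log2 fold change 3.73, SE 0.17, adjusted p = 2.77e-10). PMZ, an AN1-type zinc finger gene, averaged 60.5 ± 1.11 FPKM at 14 h and 6.13 ± 1.33 FPKM with DMSO, and SFH3, a SEC14-like lipid transfer protein, 15.9 ± 0.992 and 1.43 ± 0.0593 FPKM in the same order (SD, n = 3 each). TCH3, a calmodulin-like protein first known as touch-induced, had 16.6, 20.5 and 15.3 FPKM at 14 h and 3.02, 2.14 and 2.90 FPKM with DMSO. Each of these 4 genes had a log2 fold change of at least 2.32. CP1 (AT4G36880), a papain-like cysteine protease, averaged 39.9 FPKM at 14 h and 7.66 FPKM with DMSO. EMB1030, an alanyl-tRNA synthetase, averaged 13.7 and 2.15 FPKM, and ATG8E, a ubiquitin-like protein of autophagosomes, 15.2 and 2.71 FPKM, again at 14 h and with DMSO. XTH30, a xyloglucan endotransglucosylase, had 31.5, 40.9 and 31.4 FPKM at 14 h but spread widely with DMSO, at 3.86, 2.64 and 11.5 FPKM (log2 fold change 2.55, SE 0.45, adjusted p = 0.00137).

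**Figure D1:**
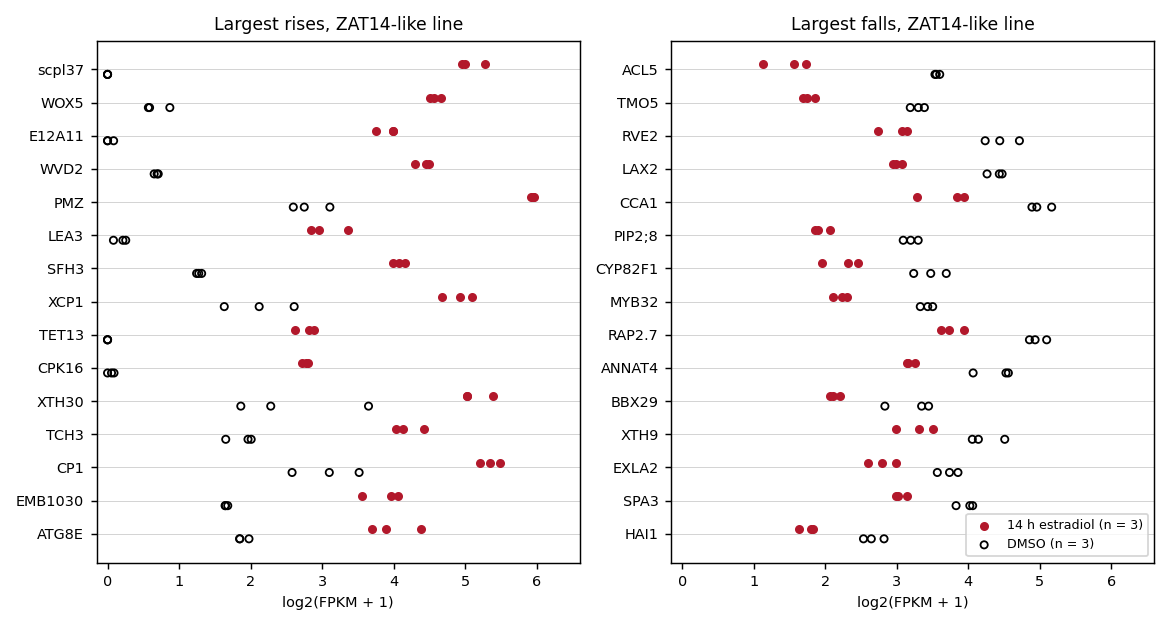
Each point is 1 library of the ZAT14-like line on a log2(FPKM + 1) axis, filled for 14 h of estradiol and open for DMSO, for the 15 largest rises (left) and the 15 largest falls (right) among called genes with a symbol, the induced gene left out. The genes were chosen for groups that do not overlap, so that separation is fixed by the choice, and the sizes differ: WVD2 lies 3.73 log2 units higher at 14 h and HAI1 0.91 lower (log2 fold change -0.91).

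The largest falls were smaller than the largest rises. ACL5 and TMO5, described with their pathway below, led them. RVE2, a MYB factor of the clock family, had 5.64, 7.43 and 7.80 FPKM at 14 h, against 17.8, 25.2 and 20.7 FPKM with DMSO. LAX2, an auxin influx carrier of the vascular cylinder, had 7.42, 6.95 and 6.74 FPKM at 14 h and 21.2, 20.6 and 18.2 FPKM with DMSO (log2 fold change -1.38, SE 0.08, adjusted p = 8.65e-09). PIP2;8, a plasma membrane aquaporin, had 2.60, 3.21 and 2.74 FPKM at 14 h and 7.51, 8.84 and 8.15 FPKM with DMSO. All 3 genes were chosen by a rule that asked for groups without overlap. RAP2.7, an AP2-type repressor of flowering, averaged 12.6 ± 1.54 FPKM at 14 h and 30.2 ± 2.69 FPKM with DMSO (SD, n = 3 each), and ANNAT4, a calcium-binding annexin, had a log2 fold change of -1.20. CYP82F1, a cytochrome P450, and SPA3, a repressor of light signalling, had log2 fold changes of -1.22 and -0.92. Genes without a symbol that fell most were AT3G42800 (an AF-like protein, -1.18), AT1G66800 (an NAD(P)-binding Rossmann-fold protein, -1.05) and AT3G51670 (a SEC14-type protein, -1.0).

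Several of these falls did not keep their call when 1 library was left out. HAI1, a protein phosphatase of abscisic acid signalling, lost its call without 14 h replicate 1 (adjusted p = 0.0503), and AT1G66800 without DMSO replicate 2 (0.0596). MYB32 lost it on leaving out any of the 6 libraries (0.0662 to 0.117), although its values of 3.29, 3.72 and 3.93 FPKM at 14 h and 9.04, 10.3 and 9.79 FPKM with DMSO lay far apart. Its log2 fold change stayed between -1.25 and -1.15 in those fits. BBX29, a B-box factor of light signalling, lost it without any library but DMSO replicate 1 (0.067 to 0.148).

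Among the xylem master switches, a MYB and a homeobox gene rose and the NAC genes on top of the pathway did not pass. Of 12 tested members 2 were called higher (16.7%, where 7.89% of all genes were) and none lower, with a median log2 fold change of 0.18. Both called members lay under 1 FPKM in every DMSO library, so this share is partly set by the filter. MYB46, which directly switches on secondary wall genes, had 1.89, 2.07 and 2.03 FPKM at 14 h, against 0.0696, 0.125 and 0.384 FPKM with DMSO (log2 fold change 1.34, SE 0.15, adjusted p = 1.04e-05). KNAT7, a homeobox regulator of secondary walls, had 2.29, 1.87 and 0.897 FPKM at 14 h and 0.372, 0.361 and 0.411 FPKM with DMSO. Both genes separated the groups, although at low levels, and 3397 of all 17157 tested genes read higher without overlap. The vessel NAC genes VND1 to VND5 had log2 fold changes between -0.12 and 0.36 and did not pass. The remaining 14 members lay below the filter, among them VND7 at 0.723 FPKM at 14 h and 0.535 FPKM with DMSO. Of these, SND1, MYB58, MYB69 and MYB103 were listed at 0 in all 6 libraries.

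Genes that build the secondary wall rose together. Of 14 tested members 9 were called higher and none lower, 64.3% where 7.89% of all genes were called higher, and the median log2 fold change was 0.89. Members near 0 with DMSO passed the filter only through libraries where they were high, so this share is partly set by the filter. IRX9, a xylan synthase component, had 3.36, 3.88 and 2.77 FPKM at 14 h, against 0, 0 and 0.195 FPKM with DMSO. CESA8, a cellulose synthase subunit of secondary walls, had 1.59, 1.80 and 1.44 FPKM at 14 h and 0.0130, 0 and 0.1 FPKM with DMSO (log2 fold change 1.33, SE 0.11, adjusted p = 4.44e-07). Its partner subunit CESA7 had 4.62, 4.63 and 4.73 FPKM at 14 h and 1.46, 1.38 and 1.31 FPKM with DMSO. CESA4, the third subunit, averaged 3.78 ± 0.590 FPKM at 14 h and 1.36 ± 0.0219 FPKM with DMSO (SD, n = 3 each). All 3 subunits of the secondary wall cellulose synthase were thus higher in every 14 h library than in any DMSO library. That held for 3397 of all 17157 tested genes. CTL2, a chitinase-like protein needed for cellulose deposition, averaged 3.82 ± 1.5 FPKM at 14 h and 0.176 ± 0.0391 FPKM with DMSO, and GAUT12, a xylan enzyme, 1.48 ± 0.314 and 0.274 ± 0.102 FPKM in the same order. COBL4, TBL29 and PARVUS were also called, with log2 fold changes of 0.82, 1.04 and 0.46. IRX10, IRX14, FLA11, FLA12 and MIDD1 did not pass (-0.06 to 0.29). Leaving out any 1 of the 6 libraries left 8 or 9 members called.

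The 8 wall members below the filter averaged at most 0.301 FPKM with DMSO and were not tested. TED6, which promotes vessel secondary walls, had 0.948, 2.36 and 1.51 FPKM at 14 h, against 0.0556, 0.0501 and 0 FPKM with DMSO. IRX15-L, a xylan gene, had 0.768, 1.07 and 0.640 FPKM at 14 h and 0, 0.130 and 0 FPKM with DMSO. ROPGEF4, which patterns vessel pits, overlapped between the groups, with 0.503, 2.46 and 1.11 FPKM at 14 h and 0.0236, 0.149 and 0.729 FPKM with DMSO. Every wall member on either side of the filter had the higher mean at 14 h except IRX10, at 5.87 FPKM at 14 h and 6.16 FPKM with DMSO.

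Of 20 tested lignin and phenylpropanoid genes 2 laccases were called higher, 10% where 7.89% of all genes were, a share near the background. LAC4, near 0 with DMSO, could pass the filter only through other libraries, so this share is partly set by the filter. LAC4, a laccase that joins monolignols in vessel walls, had 2.97, 4.15 and 2.26 FPKM at 14 h, against 0, 0 and 0.107 FPKM with DMSO (log2 fold change 1.97, SE 0.15, adjusted p = 2.16e-07). LAC11, another laccase, averaged 2.13 ± 0.963 FPKM at 14 h and 0.613 ± 0.313 FPKM with DMSO and was called. LAC17, a further laccase, lay below the filter and overlapped between the groups. The list's median was 0.05. PAL2, which opens the pathway, had 24.1, 29.0 and 22 FPKM at 14 h and 53.8, 56.0 and 74.4 FPKM with DMSO, without overlap, yet did not pass (log2 fold change -1.25, SE 0.43, adjusted p = 0.0665). C4H, the second enzyme, averaged 290 FPKM at 14 h and 307 FPKM with DMSO.

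Of the xylem cell death genes, the proteases XCP1 and XCP2 rose and no other member passed. XCP1, a papain-like protease of maturing vessels, had 29.3, 33.1 and 24.6 FPKM at 14 h, against 3.34, 2.10 and 5.10 FPKM with DMSO (log2 fold change 2.78, SE 0.24, adjusted p = 7.09e-07). XCP2, its relative, had 12.8, 16.6 and 10.4 FPKM at 14 h and 1.96, 1.42 and 4.15 FPKM with DMSO. In both genes the lowest 14 h library exceeded the highest DMSO library, as in 3397 of all 17157 tested genes. XCP1 and XCP2 were 2 of 11 tested members (18.2%, where 7.89% of all genes were called higher), none being called lower. The metacaspase MC9, also a protease, had 20.9, 23.3 and 20.7 FPKM at 14 h and 23.2, 19.3 and 22.3 FPKM with DMSO, and the nuclease BFN1 averaged 5.06 and 4.32 FPKM in the same order.

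**Figure D2:**
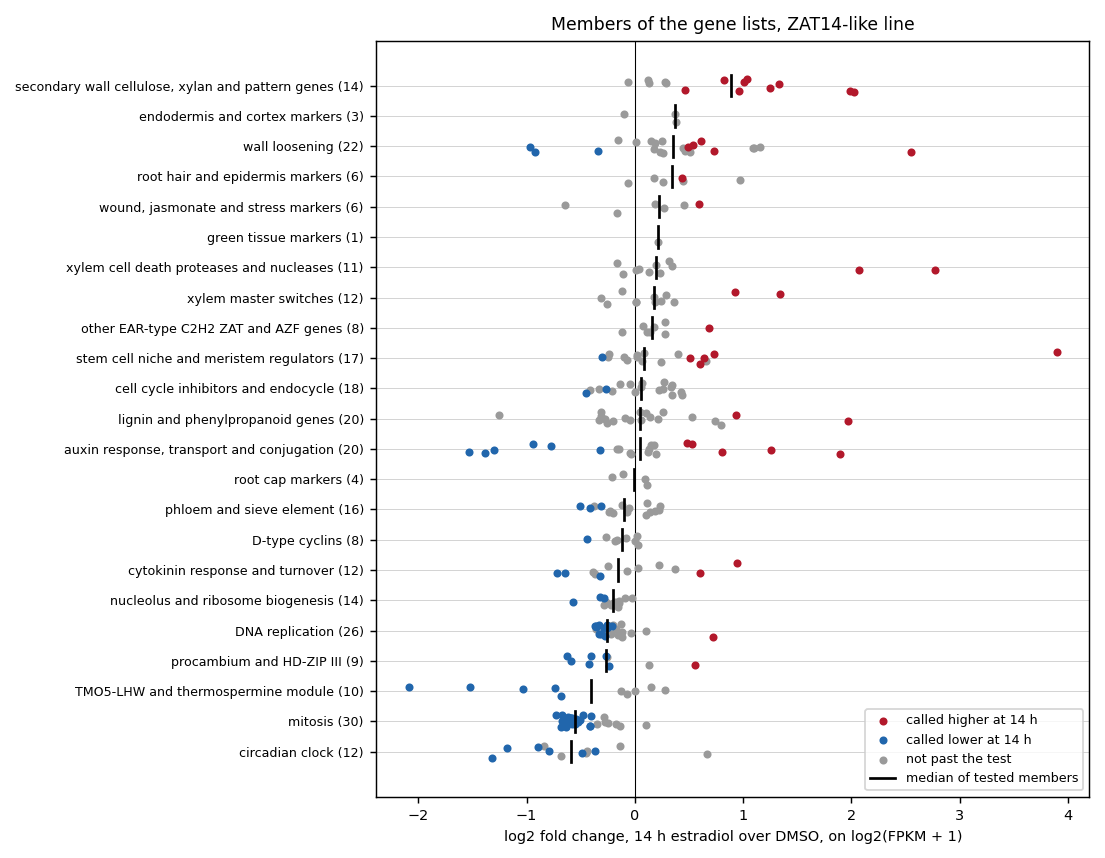
Each point is 1 tested member of a gene list, placed by its log2 fold change of 14 h estradiol over DMSO in the ZAT14-like line, with the number of tested members after each list's name and the list's median as a black bar. The list of the induced genes is left out. Of those shown, secondary wall genes stand highest with a median of 0.89, and mitosis and clock genes lowest with medians of -0.55 and -0.59.

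The TMO5-LHW and thermospermine module fell at 5 of its 10 members (50%, where 4.49% of all genes were called lower). The median log2 fold change was -0.40 and none was called higher. ACL5, the thermospermine synthase, had 2.33, 1.18 and 1.95 FPKM at 14 h, against 10.6, 10.7 and 11.1 FPKM with DMSO (log2 fold change -2.09, SE 0.13, adjusted p = 2.22e-08). TMO5, the bHLH factor that pairs with LHW, had 2.22, 2.36 and 2.62 FPKM at 14 h and 8.11, 9.45 and 8.85 FPKM with DMSO (log2 fold change -1.53, SE 0.10, adjusted p = 4.89e-08). BUD2, which supplies the substrate of thermospermine synthesis, had 0.366, 0.303 and 0.442 FPKM at 14 h and 1.69, 1.81 and 1.89 FPKM with DMSO. Each gene was several-fold lower in all 3 libraries. SACL3, a bHLH protein that counters TMO5 and is translated under thermospermine, averaged 17.7 ± 1.15 FPKM at 14 h and 30.2 ± 1.46 FPKM with DMSO, and T5L1, the closest relative of TMO5, 3.86 ± 0.359 and 6.84 ± 1.11 FPKM in the same order. The partner LHW averaged 44.8 FPKM at 14 h and 47.1 FPKM with DMSO. LHW did not pass, nor did the cytokinin-activating enzymes LOG3 and LOG4, AHP6 or SAC51. All 5 falls kept their call without any 1 of the 6 libraries.

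HD-ZIP III and procambium genes fell by less. Of 9 tested members 6 were called lower (66.7%, where 4.49% of all genes were) and 1 higher (11.1%, where 7.89% were). The median log2 fold change was -0.26. PHB, a homeobox factor of xylem patterning, had 12.0, 12.0 and 11.3 FPKM at 14 h, against 19.8, 17.6 and 17.5 FPKM with DMSO (log2 fold change -0.59, SE 0.06, adjusted p = 6.87e-06). CNA and PHV, of the same family, had log2 fold changes of -0.63 and -0.40, and HB-8, its procambial member, averaged 5.07 FPKM at 14 h and 7.14 FPKM with DMSO. REV, the remaining member, averaged 8.97 and 10.9 FPKM in the same order and did not pass (adjusted p = 0.0567). PXY, the receptor of the peptide that maintains procambium, went the other way, with 2.85, 2.53 and 2.34 FPKM at 14 h and 1.23, 1.61 and 1.45 FPKM with DMSO. The auxin response factor MP fell by 0.24 on the log2 scale, and lost its call without any library but DMSO replicate 4 (adjusted p = 0.0692 to 0.171). The number of members called lower was 3 without DMSO replicate 1 or 2, and 4 without any of the 14 h replicates.

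Of 16 tested phloem genes 3 were called lower (18.8%, where 4.49% of all genes were) and none higher. CVP2, a phosphoinositide phosphatase of protophloem, had 1.3, 1.44 and 1.55 FPKM at 14 h, against 2.48, 2.53 and 2.36 FPKM with DMSO (log2 fold change -0.51, SE 0.09, adjusted p = 0.00165). PEAR2, a mobile Dof factor, and SMXL5, a promoter of phloem formation, were the others, with log2 fold changes of -0.31 and -0.41. Only CVP2 kept its call without each of the 6 libraries: PEAR2 lost it without any of them (adjusted p = 0.0627 to 0.144), and SMXL5 without any but DMSO replicate 1 (0.0527 to 0.103). APL, which directs sieve element identity, averaged 4.74 FPKM at 14 h and 3.90 FPKM with DMSO and did not pass.

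Genes of mitosis fell together. Of 30 tested members, all those listed, 23 were called lower and none higher, 76.7% where 4.49% of all genes were called lower. Their median log2 fold change was -0.55, and the called members lay between -0.40 and -0.73. PLE, a microtubule-bundling protein of the division plane, had 8.11, 7.41 and 7.43 FPKM at 14 h, against 12.5, 13.6 and 10.8 FPKM with DMSO (log2 fold change -0.62, SE 0.10, adjusted p = 0.000406). CDKB2;2, a mitotic cyclin-dependent kinase, had 13.2, 11.5 and 10.8 FPKM at 14 h and 19.9, 22 and 16.7 FPKM with DMSO. CYCB2;1, a B-type cyclin, had 3.86, 3.37 and 3.86 FPKM at 14 h and 6.96, 7.50 and 5.96 FPKM with DMSO. In each, the highest 14 h library stayed below the lowest DMSO library, as in 3228 of all 17157 tested genes. CDKB2;1, CYCB2;2 and CYCB3;1 had log2 fold changes of -0.55, -0.52 and -0.58. The syntaxin KN, which marks cell plates, averaged 18.4 FPKM at 14 h and 28.1 FPKM with DMSO. CYCA2;1 alone had a positive value, of 0.11 (adjusted p = 0.693), and the Aurora kinases AUR1, AUR2 and AUR3 had -0.24 to -0.28 and did not pass. The count of called members was 16 without DMSO replicate 2 and 17 without 14 h replicate 3, and 0 when the test asked for a log2 change beyond 0.5 in either direction.

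Upstream sequences are printed for mitotic genes that fell because such genes often share the MSA element, whose core is AACGG. The core was searched on both strands in the 250 bases before each annotated gene start. It was found in 18 of 30 mitosis genes and in 31.5% of the genes called lower, against 21.5% of those called higher and 22.6% of all tested genes with an upstream sequence. The sequences come from the TAIR10.1 assembly of RefSeq (PLE at chr5:20964538-20964787, minus strand; CDKB2;2 at chr1:7294747-7294996, minus strand; CYCB2;1 at chr2:7663805-7664054, plus strand), read towards the gene, with each core or its reverse complement CCGTT in capitals.
PLE: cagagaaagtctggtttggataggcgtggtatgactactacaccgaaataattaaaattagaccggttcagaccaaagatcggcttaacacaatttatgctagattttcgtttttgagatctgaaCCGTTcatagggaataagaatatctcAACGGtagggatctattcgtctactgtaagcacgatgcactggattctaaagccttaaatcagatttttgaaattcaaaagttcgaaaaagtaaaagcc
CDKB2;2: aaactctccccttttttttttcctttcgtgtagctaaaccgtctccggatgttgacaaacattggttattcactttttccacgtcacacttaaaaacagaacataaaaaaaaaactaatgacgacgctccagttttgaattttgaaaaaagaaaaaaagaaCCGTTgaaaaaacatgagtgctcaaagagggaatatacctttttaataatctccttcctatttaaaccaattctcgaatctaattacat
CYCB2;1: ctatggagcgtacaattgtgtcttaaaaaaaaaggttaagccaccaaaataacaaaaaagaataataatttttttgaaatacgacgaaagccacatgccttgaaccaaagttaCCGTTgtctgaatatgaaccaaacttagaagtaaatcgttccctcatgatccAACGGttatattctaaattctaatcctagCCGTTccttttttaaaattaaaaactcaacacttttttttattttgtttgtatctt
CYCB2;1 held 3 matches, PLE 2 and CDKB2;2 1. A core of 5 letters is common, and a match is a description of these letters, not a tested site.

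DNA replication genes fell by less. Of 26 tested members 11 were called lower (42.3%, where 4.49% of all genes were) and 1 higher (3.85%, where 7.89% were). The median was -0.25. MCM6, a subunit of the replicative helicase, had 10.9, 8.43 and 9.23 FPKM at 14 h, against 12.4, 13.2 and 11.9 FPKM with DMSO (log2 fold change -0.37, SE 0.08, adjusted p = 0.00713). MCM7, ORC6 and PSF2, of the helicase, the origin recognition complex and the GINS complex, had log2 fold changes of -0.33, -0.33 and -0.36. RNR2A, a ribonucleotide reductase subunit, was the exception, with 17.2, 14.2 and 15.2 FPKM at 14 h and 8.43, 9.01 and 9.58 FPKM with DMSO (log2 fold change 0.72, SE 0.10, adjusted p = 8.53e-05). Its paralog TSO2 averaged 64.2 FPKM at 14 h and 70.4 FPKM with DMSO and did not pass. The count called lower depended on the libraries kept, with 4 members called without DMSO replicate 1, 3 without DMSO replicate 2 and 3 without 14 h replicate 3. MCM7 lost its call without 14 h replicate 3 (adjusted p = 0.0588), ORC6 without DMSO replicate 1 or 2 (0.0577 and 0.0553), and the chromatin assembly gene FAS2 without DMSO replicate 2 or 14 h replicate 3 (0.0989 and 0.115).

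E2F factors bind upstream of many replication genes, and their site was searched as TTTCCCGC or TTTGGCGC or TTTGCCGC or TTTCGCGC on both strands. It was present upstream of 11 of 26 replication genes and of no mitosis gene, in 3.77% of the genes called lower, in 0.739% of those called higher and in 1.48% of all. MCM6 at chr5:18010668-18010917, minus strand, and PSF2 at chr3:3974441-3974690, minus strand, are printed with the site in capitals.
MCM6: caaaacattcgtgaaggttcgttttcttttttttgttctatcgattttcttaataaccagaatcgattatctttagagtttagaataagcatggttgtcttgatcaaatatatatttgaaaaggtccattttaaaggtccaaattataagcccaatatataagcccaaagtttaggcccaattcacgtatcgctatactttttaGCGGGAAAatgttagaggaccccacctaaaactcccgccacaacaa
PSF2: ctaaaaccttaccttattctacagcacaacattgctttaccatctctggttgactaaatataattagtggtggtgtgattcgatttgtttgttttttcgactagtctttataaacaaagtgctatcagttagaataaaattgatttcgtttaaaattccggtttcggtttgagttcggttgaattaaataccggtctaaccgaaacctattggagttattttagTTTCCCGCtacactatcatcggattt
Each holds the site once, close to the gene start, MCM6 on the opposite strand.

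Few inhibitors of the cell cycle or D-type cyclins were called, and the lists had median log2 fold changes of 0.06 and -0.12. Of the inhibitor and endocycle genes, 7 read higher and 4 lower without overlap between the groups. Of the D-type cyclins, 0 read higher and 3 lower without overlap, where 38.6% of all genes did not overlap in either direction. None of 18 tested inhibitor and endocycle genes was called higher. Called lower were 2, KRP3 and DEL1 (11.1%, where 4.49% of all genes were), with log2 fold changes of -0.45 and -0.27. Both calls were lost without DMSO replicate 1 or 2 or 14 h replicate 3, with adjusted p of 0.148 to 0.228 for KRP3 and 0.0842 to 0.150 for DEL1. KRP3 was also lost without 14 h replicate 1 (0.0645) and DEL1 without 14 h replicate 4 (0.0773). CYCD1;1 was the only D-type cyclin of 8 called (12.5%, where 4.49% of all genes were called lower), at 0.920 FPKM at 14 h and 1.61 FPKM with DMSO. It lost the call without DMSO replicate 1, 14 h replicate 1 or 14 h replicate 3 (0.0721, 0.0598 and 0.0632). Of 14 nucleolus and ribosome biogenesis genes all had negative values, with a median of -0.20. Called lower were 3 (21.4%, where 4.49% of all genes were). NUC2, a nucleolin, averaged 0.746 ± 0.125 FPKM at 14 h and 1.60 ± 0.212 FPKM with DMSO. FIB2 and NOP5-1, of the small nucleolar RNA particles, had -0.32 and -0.28, and neither kept its call without DMSO replicate 1 or 2 or 14 h replicate 3 (0.0897 to 0.232). NOP5-1 also lost it without DMSO replicate 4 or 14 h replicate 1 (0.0647 and 0.0601) and after median-ratio rescaling of the libraries. The number called was 7 without 14 h replicate 4, and 1 without DMSO replicate 1 or 2 or 14 h replicate 3.

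Among the stem cell niche and meristem genes, WOX5, known from the quiescent centre, rose by far the most. It had 22.5, 24.3 and 21.8 FPKM at 14 h, against 0.828, 0.485 and 0.502 FPKM with DMSO (log2 fold change 3.90, SE 0.20, adjusted p = 1.88e-09). BBM, a PLETHORA-type factor, had 15.3, 12.5 and 13 FPKM at 14 h and 7.63, 8.88 and 6.86 FPKM with DMSO. JKD, MGP and NUTCRACKER, zinc finger partners of SHR and SCR in ground tissue, had log2 fold changes of 0.64, 0.60 and 0.51. So 5 of 17 tested members were called higher (29.4%, where 7.89% of all genes were) and 1 lower (5.88%, where 4.49% were). The count called higher was 5 without any 1 of the 6 libraries. In the ZAT14 line 6 of the 17 were called higher, where 489 of all 17157 genes were called higher. SHR, the mobile factor made in the vascular cylinder, fell, at 20.5 ± 0.650 FPKM at 14 h and 25.6 ± 1.01 FPKM with DMSO, a call lost without DMSO replicate 1 (adjusted p = 0.0543). PLT1, PLT2 and SCR had log2 fold changes of 0.02, -0.07 and 0.09 and did not pass.

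Auxin genes split, 5 higher (25%, where 7.89% of all genes were) and 6 lower (30%, where 4.49% were) of 20 tested. GH3.2 and GH3.3, which conjugate auxin to amino acids, rose. Both were near 0 with DMSO, so the share called higher is partly set by the filter. GH3.2 had 3.21, 2.48 and 2.85 FPKM at 14 h, against 0, 0.0362 and 0.0664 FPKM with DMSO (log2 fold change 1.89, SE 0.11, adjusted p = 5.63e-09), and GH3.3 averaged 1.44 FPKM at 14 h and 0.0151 FPKM with DMSO. GH3.5, another such enzyme, fell, with 1.32, 1.25 and 1.54 FPKM at 14 h and 3.31, 3.83 and 3.55 FPKM with DMSO. IAA20 and IAA30, unusual Aux/IAA proteins expressed in the vascular cylinder, fell as well. IAA30 had 0.678, 0.224 and 0.409 FPKM at 14 h and 2.35, 3.93 and 3.24 FPKM with DMSO, and IAA20 averaged 0.371 and 2.40 FPKM in the same order. The list thus held members of one enzyme family on either side. Among 12 cytokinin genes, 2 were called higher (16.7%, where 7.89% of all genes were) and 3 lower (25%, where 4.49% were). The degrading enzymes CKX7 and CKX3 were higher (log2 fold changes 0.95 and 0.60) and the response regulators ARR5, ARR8 and ARR15 lower (-0.72, -0.32 and -0.64). CKX7 kept its call without each of the 6 libraries. CKX3 lost it without DMSO replicate 1 or 14 h replicate 4 (adjusted p = 0.0824 and 0.0613), ARR5 without any library but 14 h replicate 4 (0.0634 to 0.111), ARR8 without any but 14 h replicate 1 (0.0552 to 0.0964), and ARR15 without any but DMSO replicate 4 or 14 h replicate 4 (0.0788 to 0.186).

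Wall-loosening genes mostly read higher, 18 of 22 tested, with a median of 0.35. Of the 22, 5 were called higher (22.7%, where 7.89% of all genes were) and 3 lower (13.6%, where 4.49% were). XTH5 had 99.2, 104 and 114 FPKM at 14 h, against 74.8, 73.4 and 70.2 FPKM with DMSO (log2 fold change 0.53, SE 0.07, adjusted p = 8.38e-05). EXPA10, an expansin, and AHA3, a proton pump of phloem, had log2 fold changes of 0.49 and 0.74, while XTH9 and EXLA2 fell by 0.96 and 0.92 on the log2 scale. XTH17 and XTH18 averaged 37.2 and 37.5 FPKM at 14 h and 17.8 and 18.0 FPKM with DMSO but did not pass. Their spread followed individual libraries: XTH17 was 27.5, 56.2 and 28.0 FPKM at 14 h and 14.0, 7.78 and 31.6 FPKM with DMSO. COBL9, a root hair gene, had its highest value in each group in the same library as XTH17, with 1.38, 4.61 and 1.83 FPKM at 14 h and 0.289, 0.208 and 2.21 FPKM with DMSO. The root hair and epidermis markers summed to 121 to 134 FPKM at 14 h and 105 to 112 FPKM with DMSO. Of 6 tested members 1 was called (GL2, log2 fold change 0.44), 16.7% where 7.89% of all genes were called higher. GL2 lost its call without DMSO replicate 2 or 14 h replicate 3 (adjusted p = 0.0865 and 0.0508). How much these markers contribute to the wall-loosening values was not tested.

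Few markers of other tissues passed the test, although several sums read higher at 14 h. Of the endodermis and cortex markers 3 of 10 and of the green tissue markers 1 of 5 passed the filter, and none was called. The endodermis list summed to 5.2 to 12.5 FPKM at 14 h and 4.02 to 6.10 FPKM with DMSO, and the green list to 4.41 to 7.54 FPKM at 14 h and 3.6 to 4.45 FPKM with DMSO, with RBCS2B listed at 0. The 3 tested endodermis genes had a median log2 fold change of 0.37, and the 7 below the filter all had the higher mean at 14 h, such as CASP1 at 0, 1.38 and 0.201 FPKM at 14 h and 0, 0 and 0.213 FPKM with DMSO. The highest 14 h value of CASP1 was in replicate 3. Wound, jasmonate and stress markers summed to 53.3 to 56.6 FPKM at 14 h and 45.2 to 48.5 FPKM with DMSO, without overlap, with VSP2, LOX2, LOX3 and ERF109 listed at 0 in all 6 libraries. WRKY40, a defence regulator, was the 1 called of 6 tested (16.7%, where 7.89% of all genes were called higher). It had 5.13 FPKM at 14 h and 3.07 FPKM with DMSO, and lost the call without DMSO replicate 1 or 2 or 14 h replicate 3 (adjusted p = 0.0567, 0.1 and 0.103).

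Clock genes fell at 6 of 12 tested members (50%, where 4.49% of all genes were called lower), with a median of -0.59 and none called higher. CCA1, a morning MYB factor, had 13.3, 14.3 and 8.69 FPKM at 14 h, against 30.1, 34.9 and 28.6 FPKM with DMSO (log2 fold change -1.32, SE 0.24, adjusted p = 0.00165). RVE1, a relative that links the clock to auxin, had 1.53, 1.65 and 1.46 FPKM at 14 h and 4.00, 6.6 and 4.07 FPKM with DMSO. TOC1 and ELF3, evening genes, had log2 fold changes of -0.37 and -0.49. So both morning and evening genes read lower. LHY, the partner of CCA1, lost its call without DMSO replicate 2 or 14 h replicate 4 (adjusted p = 0.0503 and 0.058), and ELF4 without DMSO replicate 2 or 4 or 14 h replicate 1 or 4 (0.0766 to 0.0901). The ZAT14 line, with libraries of its own, had a median of -0.68 in this list. There 7 of 12 were called lower, where 246 of all 17157 genes were called lower. The hour of harvest was not given, so its part in these values was not tested. The evening element, AAATATCT, was found upstream of 4 of 12 clock genes and in 4.68% of all tested genes.

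Promoters of wall genes were searched for the sites that MYB46 recognises, called SMRE and searched on both strands as ACCAAAT or ACCAAAC or ACCAACT or ACCAACC or ACCTAAT or ACCTAAC or ACCTACT or ACCTACC. At least 1 lay upstream of 7 of 14 wall genes, in 28.5% of the genes called higher, 27.8% of those called lower and 29.5% of all, so the genes that rose held them no more often than others. Telo boxes (AAACCCTA) were in 2.44% of the genes called higher, 3.51% of those called lower and 3.90% of all, and site II elements (TGGGCC or TGGGCT) in 17.2%, 28.1% and 24.1% in the same order. Matches of different motifs were counted separately, whether or not they overlapped. CESA4 at chr5:17714140-17714389, plus strand, is printed with its single SMRE match in capitals.
CESA4: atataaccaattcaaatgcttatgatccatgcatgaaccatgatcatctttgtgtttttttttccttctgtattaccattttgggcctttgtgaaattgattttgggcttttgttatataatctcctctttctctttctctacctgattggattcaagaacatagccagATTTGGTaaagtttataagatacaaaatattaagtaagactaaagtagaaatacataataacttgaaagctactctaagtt

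The earlier time of the same line asks which of these changes came between 10 h and 14 h. Compared directly, 1485 of 17157 genes (8.66%) differed, 639 higher and 846 lower at 14 h than at 10 h. The count was 290 in a fit of those 2 groups alone, 716 without 14 h replicate 3, 838 without 14 h replicate 4 and 2413 without 10 h replicate 4. Mitosis genes were lower at 14 h than at 10 h in 25 of 30 cases, and in 25 without the 10 h library that stood apart, but in 6 with those 2 groups alone. Their median difference was -0.53, and PLE had 10.7, 13.8 and 12.8 FPKM at 10 h. Secondary wall genes were higher at 14 h in 8 of 14 cases, and in 5 with those 2 groups alone, with IRX9 at 0.357, 0.407 and 0.607 FPKM at 10 h and LAC4 at 0.150, 0.211 and 0.0401 FPKM. ACL5 fell further after 10 h, when it had 5.06, 3.68 and 4.44 FPKM (log2 difference -0.95, adjusted p = 0.000567). TMO5, with 4.03, 3.07 and 2.80 FPKM at 10 h, did not differ by the test (-0.33, adjusted p = 0.0627). WOX5 was already high at 10 h, at 23.2 ± 5.48 FPKM (SD, n = 3), and the 14 h value did not differ from it by the test (0.00, SE 0.20). The induced gene itself had 48.2, 59.8 and 56.7 FPKM at 10 h (0.37, adjusted p = 0.0746). Lignin and phenylpropanoid genes were higher at 14 h than at 10 h in 12 of 20 cases, and in 5 with those 2 groups alone, while 18 of the 20 did not pass against DMSO at 14 h. C4H had 165, 75.2 and 165 FPKM at 10 h. RVE2 had 75.9, 77.8 and 58.1 FPKM at 10 h, above both its 14 h and its DMSO values.

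**Figure D3:**
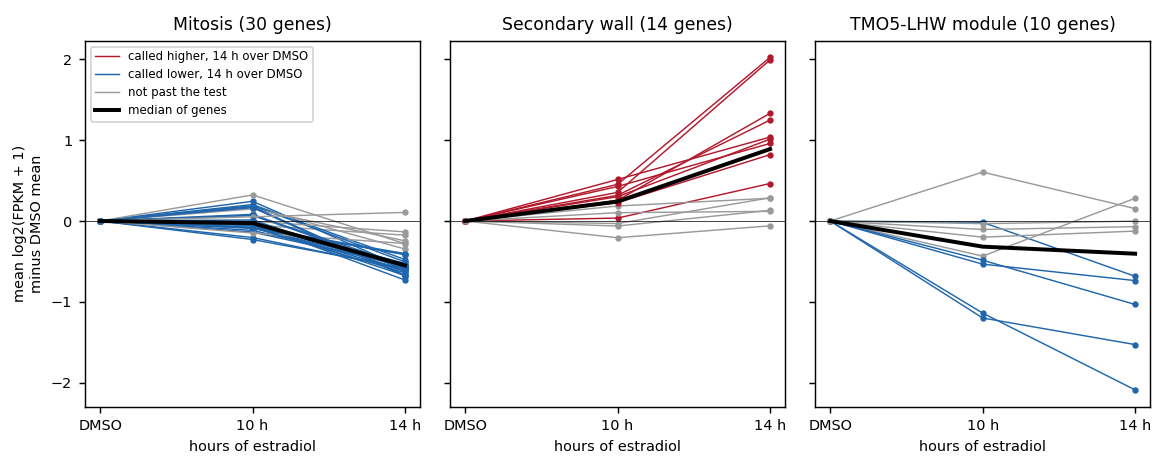
Each thin line is 1 gene of the mitosis, secondary wall or TMO5-LHW and thermospermine list in the ZAT14-like line, drawn as its mean log2(FPKM + 1) minus its DMSO mean for DMSO, 10 h and 14 h (3 libraries each), with the median gene in black. Mitosis genes lie near the DMSO level at 10 h and at a median of -0.55 at 14 h, wall genes reach 0.89 at 14 h, and 5 members of the TMO5-LHW module are called lower at 14 h.

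The ZAT14 line, whose libraries are separate, was set beside the ZAT14-like response at 14 h. There 735 genes were called at 14 h against its own DMSO (4.28%), 489 higher and 246 lower. Of the 2123 genes called in the ZAT14-like line 577 were also called in the ZAT14 line, which is 27.2% of the first list and 78.5% of the second, and 576 of them had the same direction. Across all 17157 genes, which are not independent replicates, the log2 fold changes of the lines correlated with Pearson's r = 0.75 and Spearman's rho = 0.62, given as a description. Of the called genes 95.6% had the same sign in the ZAT14 line and 90.2% the larger absolute change in the ZAT14-like line, where they had been chosen. The matching shares among all 17157 genes are not given. Neither percentage therefore shows whether called genes differed in this from genes in general.

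The difference between the responses was called for 62 genes (0.361%), 58 with the higher log2 fold change in the ZAT14-like line and 4 with the lower. Each line was induced for its own gene only, and the other gene was native there. The median log2 fold change over ZAT14-like and ZAT14 at 14 h therefore mixes an induced and a native gene. It was 1.83 in the ZAT14-like line and 0.98 in the ZAT14 line, and neither value measures strength of induction. How far strength of induction enters the differences was not tested. Among genes with a symbol and a mean of at least 5 FPKM in the higher group, the induced genes aside, the largest were LEA3 (difference 1.72, adjusted p = 0.000984), CPK16 (1.51, adjusted p = 1.84e-05), scpl37 (1.48, adjusted p = 0.0470) and EMB1030 (1.40, adjusted p = 0.000305). All 4 also rose in the ZAT14 line: CPK16 had 1.39, 1.37 and 1.3 FPKM at 14 h there, against 0.0420, 0 and 0.0218 FPKM with DMSO, and scpl37 had 9.84, 11.2 and 12.5 FPKM at 14 h and was listed at 0 with DMSO. Of the 58 genes 38 were called higher in the ZAT14 line too, by less. TET13, NAC049, a NAC factor, and TCH3 had differences of 1.38, 1.37 and 1.32. These calls depend on the pseudocount: with 0.1 in place of 1 the number called was 15, and the calls for LEA3 (adjusted p = 0.278), CPK16 (0.0637), scpl37 (0.495), TET13 (0.192) and NAC049 (0.0772) were lost. The call for NAC049 was also lost without the 3 libraries numbered 2 (0.056). From the lists, GH3.2 (1.35), LAC4 (1.28), CTL2 (1.25), IRX9 (1.22), CESA7 (0.85) and CESA8 (0.76) responded more in the ZAT14-like line, as called with a pseudocount of 1. IRX9, for one, had 0.519, 0.980 and 1.1 FPKM at 14 h in the ZAT14 line and 0.190, 0 and 0 FPKM with DMSO.

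Besides ZAT14 itself, PHB and AZG2, annotated as a permease, had the lower response in the ZAT14-like line among genes with a symbol. PHB had 15.4, 16.7 and 15.2 FPKM at 14 h in the ZAT14 line, against 18.0, 17.5 and 17.0 FPKM with DMSO, a difference between lines of -0.45 (SE 0.09, adjusted p = 0.0363). AZG2 averaged 9.92 ± 0.201 FPKM at 14 h in the ZAT14-like line and 13.2 ± 1.07 FPKM with DMSO, and 13.9 ± 0.787 FPKM at 14 h in the ZAT14 line and 11.8 ± 0.148 FPKM with DMSO (SD, n = 3 each). The calls for PHB and scpl37 were lost on leaving out any 1 of the 12 libraries of these groups, with adjusted p of 0.0513 to 0.132 for PHB and 0.0757 to 0.172 for scpl37. No mitosis gene was called for the difference, although 2 of 30 were called lower in the ZAT14 line with a median of -0.29. In that line 246 of all 17157 genes were called lower. WOX5 (difference 1.19, SE 0.28, adjusted p = 0.126), ACL5 (-0.77, adjusted p = 0.138) and TMO5 (-0.63, adjusted p = 0.120) did not pass for the difference.

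**Figure D4:**
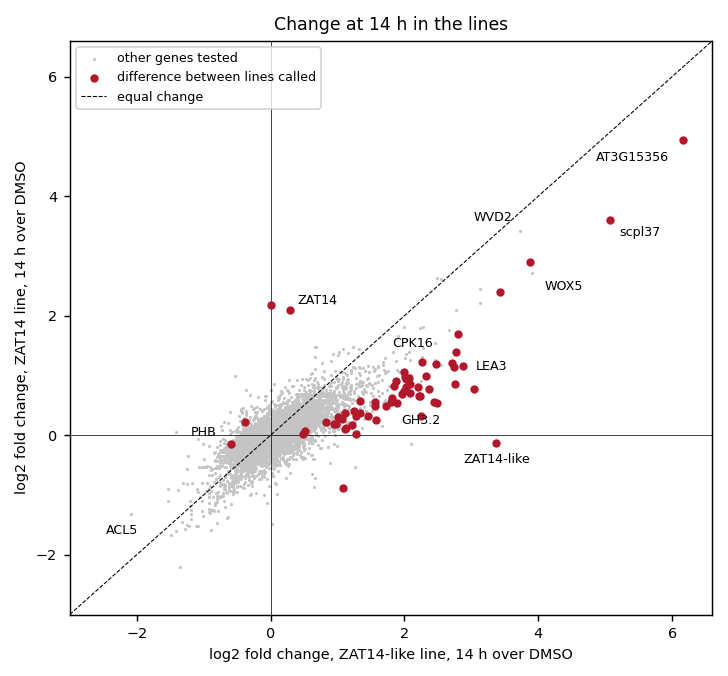
Each point is 1 of 17157 tested genes, placed by its log2 fold change at 14 h over DMSO in the ZAT14-like line (horizontal) and in the ZAT14 line (vertical), with the 62 genes called for the difference in red and a dashed line of equal change. Most red points lie below the dashed line, with EMB1030 at 2.2 and 0.80, and ZAT14-like at 3.37 and -0.13.

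Reads of genes that overlap on the genome cannot be told apart where strand was not used, which the labels do not state. Among the genes named, E12A11, SFH3, TCH3, XCP1, ACL5, CESA4, CESA7, CESA8, GAUT12, LAC11, RNR2A, CDKB2;1, CDKB2;2, MCM7, FIB2, DEL1, MP, ELF3, RVE1, SPA3, GL2, WRKY40, ARR8 and CYCD1;1 overlap another annotated gene. Close paralogs such as XCP1 and XCP2, CDKB2;1 and CDKB2;2, or XTH17 and XTH18 may also share reads, and those values are less certain.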

How the data were processed

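Whole root meristems of both inducible lines gave 18 libraries, in 6 groups of 3 assigned from the sample titles. The deposited values are FPKM, made by the authors per library; per the submitters' processing notes, TopHat2 and HTSeq were used with TAIR10, and no version or filter is given. FPKM is relative: where abundant genes take a larger share, others read lower. Depth was estimated from low values, of which 77.0% to 79.6% were whole within 0.05 reads, so no counts were recovered. Such depths cover counting error only.

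limma 3.58.1 in R 4.3.3 fitted 6 group means over the 18 libraries to log2(FPKM + 1) of each gene reaching 1 FPKM in 3 libraries (eBayes with a trend, two-sided, Benjamini-Hochberg over all 17157 genes, called under 0.05). The steps were tested on simulated data. Contrasts were 14 h against DMSO, 14 h against 10 h, and the difference between the lines at 14 h. Symbols, products, coordinates and upstream sequences came from RefSeq's TAIR10.1 by locus code, which matched 32548 of 34218 identifiers; 1385 identifiers are not locus codes.

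Named genes were ZAT14-like and ZAT14, the 15 called genes with a symbol that changed most each way, given a mean of 5 FPKM in the higher group and no overlap, 3 each without a symbol, up to 6 called members of each of 24 lists (384 genes, of which 301 were tested), and up to 8 each side for the difference. Other members are given as values or were named where counts were small. The comparison, lists and rules were chosen with earlier results of these data known. The alternatives tried are in the closing section. Some items are not reported here.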

Additional observations from a re-analysis of the deposited data

Results flagged for a closer look

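The 14 h response differed between the ZAT14-like and ZAT14 lines for 62 genes by the interaction term. Those named by the rule were flagged by that test of the difference, given here as the log2 fold change in the ZAT14-like line minus that in the ZAT14 line. Wall genes among them were CESA8 (0.76), CESA7 (0.85), IRX9 (1.22), CTL2 (1.25) and LAC4 (1.28). The other higher ones were E12A11 (0.98), AT2G41445 (1.02), SFH3 (1.1), AT3G15356 (1.22), TCH3 (1.32), GH3.2 (1.35), NAC049 (1.37), TET13 (1.38), EMB1030 (1.40), scpl37 (1.48), CPK16 (1.51) and LEA3 (1.72). ZAT14-like (3.5) and ZAT14 (-1.81) are the genes induced in the lines. AZG2 (-0.59) and PHB (-0.45) were lower. The gap test for an outlying sample within a group was not run, since it needs 4 samples.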

How the results depend on the processing

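The ZAT14-like rise held under all 15 alternatives, with log2 fold changes of 3.28 to 3.55. Of 106 called results (genes named for 14 h against DMSO, ZAT14-like included), 42 kept their call under all of their alternatives and none reversed. A test against a log2 change of 0.5 ended each of the other 64 calls, and further alternatives ended some of them too. For 14 h against DMSO, 2123 genes became 75 with a required log2 change of 1, 1060 without the 3 libraries numbered 2, and 1112 to 3409 on leaving out 1 library, the highest without ZAT14-like 10 h replicate 1. For the difference between lines, 62 became 15 with a pseudocount of 0.1, 121 with no filter on low values, 1 with a required change of 1, 30 without the libraries numbered 2, and 38 to 69 on leaving out 1 library. For 14 h against 10 h, 1485 became 5 with a required change of 1, 290 with those groups alone, and 716 to 2413 on leaving out 1 library. The cause was not tested. Median-ratio rescaling gave 2101, 65 and 1451 for the 3 counts, a robust fit 2101, 62 and 1476.

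The 14 h and DMSO groups share only replicate numbers 1 and 4, whose deviations from the group means correlated at 0.25 and -0.16. So few values cannot settle whether a number marks a shared batch. With the replicate number as a block, 1574, 57 and 1847 genes were called, and 5 replication genes lower where 11 were called without it. Low genes are limited by depth: 1 FPKM rests on few reads in a short gene.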

Other observations

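The families below were picked after their values were seen and are given without a test. Of 48 tested genes whose annotated product names a calcium-binding EF-hand or a calmodulin-like protein, 14 were called higher at 14 h in the ZAT14-like line and none lower, 29.2% where 7.89% of all genes were called higher, with a median log2 fold change of 0.16. CML41, a calmodulin-like protein, had 3.96, 4.90 and 4.57 FPKM at 14 h and was listed at 0 with DMSO. AT3G47480, an EF-hand gene, had 9.24, 13 and 11.8 FPKM at 14 h, against 3.15, 2.40 and 4.09 FPKM with DMSO, and AT2G46600 averaged 35 ± 6.16 FPKM at 14 h and 13 ± 3.18 FPKM with DMSO (SD, n = 3 each). In the ZAT14 line 6 of the 48 were called higher, where 489 of all 17157 genes were called higher.

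Of 9 tested ATG8 genes, which encode the ubiquitin-like protein of autophagosomes, 3 were called higher and none lower, where 7.89% of all genes were called higher. ATG8E had 13.8, 19.9 and 11.9 FPKM at 14 h, against 2.94, 2.59 and 2.60 FPKM with DMSO. ATG8B averaged 8.16 FPKM at 14 h and 3.95 FPKM with DMSO, and the gene annotated as APG8H 28.0 and 23.0 FPKM in the same order, while ATG8F averaged 15.0 and 14.5 FPKM.

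AT5G62998 was the single gene called in both lines with opposite directions: it had a log2 fold change of 1.09 at 14 h in the ZAT14-like line and -0.88 in the ZAT14 line (difference 1.97, adjusted p = 0.00191).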
